A study of Mus musculus with 64 samples.

Results

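The striatum of mice heterozygous for Polq was compared with that of wild-type mice of the same age in 16 RNA sequencing libraries, 8 from mice labelled Polq+/- and 8 from mice labelled WT, out of 64 libraries in the whole series. The libraries were chosen by their labels alone, no measured value was used, and each came from a different mouse. All 16 mice were on a C57BL/6 background, were 6 months old and carried no Q140 allele, and each group held 4 females and 4 males. The other 48 libraries came from the cortex of the same mice and from both tissues of Q140 and Q140 X Polq+/- mice. The Q140 allele places a lengthened CAG repeat in mouse huntingtin and is used as a model of Huntington's disease. The sources used here do not say how the Polq allele was made.

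Polq encodes DNA polymerase theta, a helicase and polymerase that anneals short stretches of matching sequence at broken DNA ends and fills the gaps, a route called theta-mediated or alternative end joining. The route is error-prone and gains weight when homologous recombination is impaired, and in most resting adult tissues the gene is weakly transcribed. The striatum consists mainly of spiny projection neurons, which Huntington's disease damages early. The comparison asks how the striatal transcriptome of Polq+/- mice differed from wild type in the absence of the disease allele.

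Depth was even across the 16 libraries, from 32066871 to 40616657 gene counts. All 26 listed markers of spiny neurons passed the count filter, and no marker on the list was at 0. Their summed levels were 25706 to 31098 CPM (counts scaled to library size with edgeR's TMM factors) in wild type and 28082 to 29555 CPM in Polq+/- mice. The log2 CPM of libraries correlated at a median r of 0.991 within wild type, 0.9923 within Polq+/- and 0.9919 between the groups, a description over genes with no test. Wild-type male 3, wild-type male 2 and Polq+/- female 3 stood apart from their groups, with median correlations of 0.9885, 0.9901 and 0.9901. Polq+/- female 3 held the choroid plexus transcript Ttr (transthyretin) at 1239 CPM, where the other 15 libraries ranged from 0.524 to 18.1 CPM. Wild-type male 2 held the cerebellar transcript Cbln3 at 60.7 CPM, where the other 15 ranged from 0.0821 to 0.331 CPM. Wild-type male 3 had the lowest huntingtin (Htt) level of the group, 137 CPM against 209 to 220 CPM in the other 7. This was not particular to Htt. The same library was lowest of the group for Reln (202 CPM, others 270 to 317) and Itpr1 (1253 CPM, others 1624 to 1828). It was highest of the group for Pcnp (63.8 CPM, others 56.5 to 59.5). The sex read from sex-linked transcripts was the one on the label in 16 of 16 libraries.

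Polq itself was measured first, since it checks the labels. Polq (ENSMUSG00000034206) lies on the plus strand of chromosome 16, from 37011786 to 37095417 on GRCm38. In wild-type females 1 to 4 it stood at 3.22, 4.08, 3.13 and 3.56 CPM, and in wild-type males 1 to 4 at 3.09, 2.77, 2.46 and 2.78 CPM. In Polq+/- females 1 to 4 it stood at 2.25, 1.65, 1.80 and 1.31 CPM, and in Polq+/- males 1 to 4 at 2.07, 2.42, 0.376 and 1.43 CPM. Every Polq+/- mouse lay below every wild-type mouse. The mean was 1.66 ± 0.647 CPM against 3.14 ± 0.506 CPM in wild type (SD, n = 8), or 53.1% of the wild-type mean, and 58.9% when Polq+/- male 3 was left out. Polq+/- male 3 had 12 Polq reads, where the other 7 Polq+/- mice had 46 to 91 and wild types 90 to 148, and its label was the same as that of the other 7. The difference was past an exact two-sided permutation test of genotype within sex (p = 0.00041, the smallest that 4900 arrangements can give). In the edgeR quasi-likelihood fit over all genes the log2 fold change was -0.90 (SE 0.32), and the adjusted p was 0.938.

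Across all 18270 genes tested, 9 passed an adjusted p of 0.05 in edgeR (0.0493%), 6 higher and 3 lower in Polq+/- mice. All 9 lay on chromosome 16, the chromosome of Polq, between 34.7 and 57.1 Mb. None of the other 17740 tested genes was called, a few of which are not placed on a chromosome in the annotation. The 9 were Fbxo40, Mylk, Cd47, Ccdc80, Tmem45a2 and Dubr, which were higher, and Pcnp, Cep97 and Sema5b, which were lower. At an unadjusted p under 0.05 there were 924 genes (5.06%), 477 of them higher (2.61%) and 447 lower (2.45%). The median log2 fold change over all genes was -3.71e-05.

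**Figure D1:**
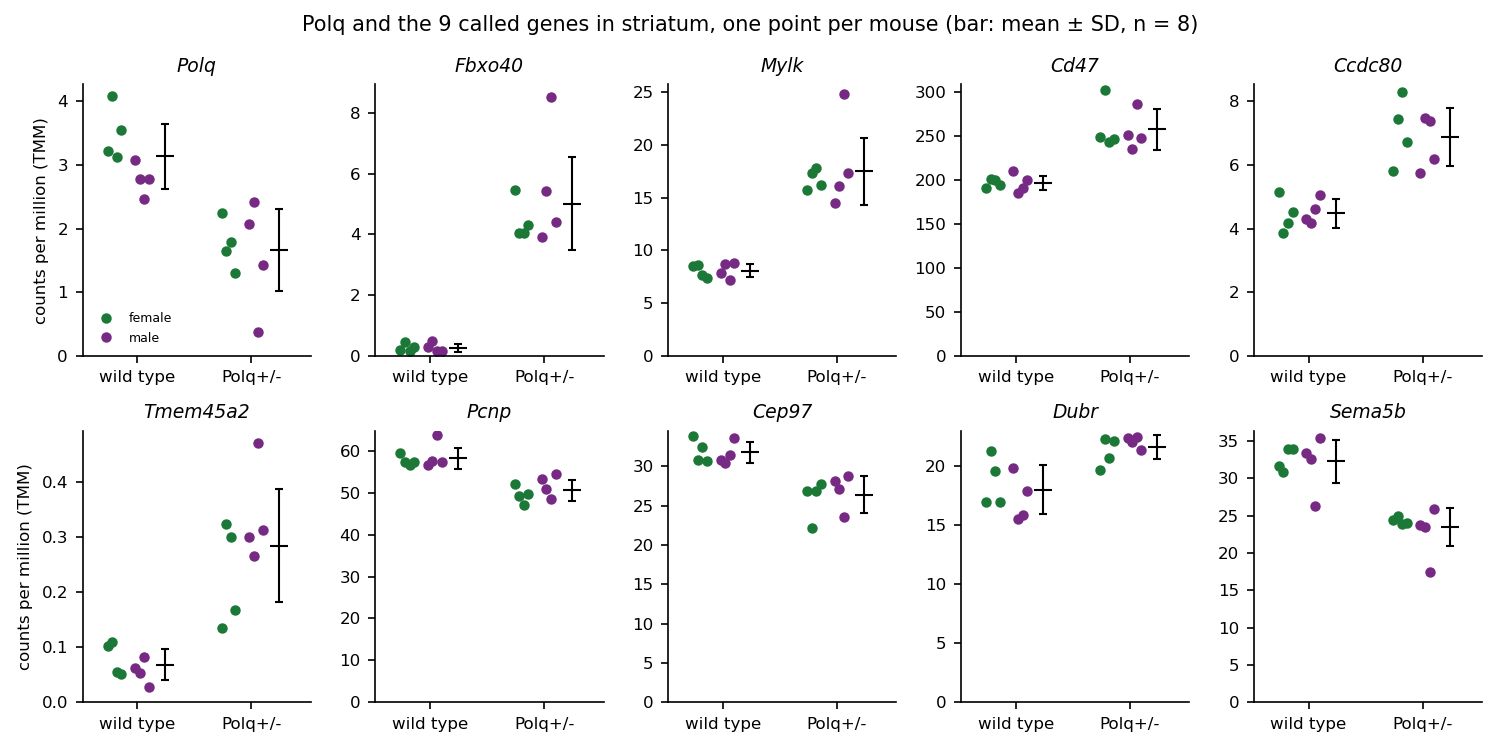
CPM of Polq and of the 9 called genes in the striatum of each mouse (vertical axes from 0, CPM), wild type on the left and Polq+/- on the right of each panel, with females in green, males in purple, and the mean ± SD of the 8 mice as a black bar. The groups overlap in the Dubr panel alone, and Polq+/- male 3 is the lowest point for Polq and Sema5b and the highest for Fbxo40 and Mylk.

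The largest change was that of Fbxo40 (ENSMUSG00000047746), an F-box protein best known from skeletal muscle, where it serves as the substrate-binding part of a ubiquitin ligase. It is the nearest tested gene upstream of Polq. It is read from the minus strand (36963460 to 36990467), so that the starts of the genes face away from each other across 21.3 kb. The sequences just before both starts are printed here because this neighbour pair holds the targeted gene and the gene with the largest change. They are the 250 bases before an annotated start of each gene from RefSeq (GRCm38.p6), read 5′ to 3′ on the strand of the gene. The first is at chr16:37011536-37011785 on the plus strand and the second at chr16:36990468-36990717 on the minus strand. Capitals mark CCGGAAG, the core of an ETS factor motif, in the first and CAGCTG, an E-box, in the second.
Polq: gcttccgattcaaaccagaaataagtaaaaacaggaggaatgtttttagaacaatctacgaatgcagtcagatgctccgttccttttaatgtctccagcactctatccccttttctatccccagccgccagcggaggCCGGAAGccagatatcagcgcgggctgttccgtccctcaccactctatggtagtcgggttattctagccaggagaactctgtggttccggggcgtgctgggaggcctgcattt
Fbxo40: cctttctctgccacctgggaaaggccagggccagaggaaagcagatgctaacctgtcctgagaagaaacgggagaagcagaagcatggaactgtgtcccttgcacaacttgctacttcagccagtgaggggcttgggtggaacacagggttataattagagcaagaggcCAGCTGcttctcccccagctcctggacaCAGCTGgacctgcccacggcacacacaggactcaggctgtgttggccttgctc
Both strands were searched. The Polq window held 1 CCGGAAG and no CAGCTG, and the Fbxo40 window held 2 CAGCTG and no CCGGAAG. Of 32851 promoter windows of this length in the table, 6.91% held CCGGAAG and 13% held CAGCTG. Neither window held TATAAA (12.4% of all), CCAAT (33.8%) or GGGCGG (32.7%). Fbxo40 has a further annotated start, whose window (chr16:36979137-36979386, minus strand, not printed) held 1 CAGCTG. Which start the Fbxo40 RNA came from was not tested. These matches describe letters and show no binding.

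Fbxo40 was almost silent in wild-type striatum, at 0.179, 0.469, 0.163 and 0.286 CPM in females 1 to 4 and 0.284, 0.48, 0.164 and 0.167 CPM in males 1 to 4, from 6 to 18 reads a library. In Polq+/- striatum it stood at 5.47, 4.05, 4.06 and 4.32 CPM in the females and 3.92, 5.42, 8.52 and 4.40 CPM in the males, from 125 to 272 reads. The lowest Polq+/- mouse was therefore far above the highest wild type. The ratio of mean CPM was 18.3 and the log2 fold change 4.17 (SE 0.25, 95% interval 3.67 to 4.68, adjusted p = 3.96e-13). Per length, Fbxo40 rose from 0.0486 ± 0.0238 FPKM to 0.887 ± 0.274 FPKM, while Polq went from 0.317 ± 0.047 to 0.168 ± 0.066 FPKM (SD, n = 8). On this scale Fbxo40 lay below Polq in wild-type mice and above it in Polq+/- mice. Stxbp5l, the gene on the far side of Polq (named for its position), was at 56.7 ± 10.6 CPM in wild type and 59.6 ± 2.97 CPM in Polq+/- mice (log2 fold change 0.07, SE 0.08, adjusted p = 0.951).

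Mylk (chromosome 16, 34745210 to 35002420, plus strand) encodes myosin light chain kinase, which phosphorylates the regulatory light chain of myosin in smooth muscle and other contractile cells. Wild-type mice had 7.23 to 8.81 CPM (median 8.15) and Polq+/- mice 14.5 to 24.8 CPM, with 7 of them between 14.5 and 17.8 and male 3 at 24.8. The groups did not overlap, and the log2 fold change was 1.11 (SE 0.12, adjusted p = 1.56e-06). Of the 9 markers of mural cells, which are contractile cells of vessel walls, 0 were at an unadjusted p under 0.05, and their summed level was 230 to 260 CPM in wild type and 222 to 261 CPM in Polq+/- mice.

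Cd47 (49800533 to 49915010, plus strand) encodes the cell surface protein that signals "do not engulf" to phagocytes through SIRP alpha. It was the most abundant called gene, at 186 to 211 CPM in wild-type mice and 235 to 303 CPM in Polq+/- mice, with no overlap. The mean was 31.1% higher (log2 fold change 0.39, SE 0.05, adjusted p = 2.79e-05). Of the 15 markers of microglia, the phagocytes of the brain, 0 were called and 1 was at an unadjusted p under 0.05, beside 5.06% of all genes. The list's median log2 fold change was -0.03.

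Ccdc80 (45093402 to 45128077, plus strand) encodes a secreted matrix-binding protein. It stood at 3.86 to 5.16 CPM in wild-type mice and 5.75 to 8.30 CPM in Polq+/- mice, again with no overlap (log2 fold change 0.62, SE 0.09, adjusted p = 2.18e-04). Tmem45a2 (57036967 to 57071372, minus strand), a predicted membrane protein, had 1 to 4 reads in wild-type libraries and 5 to 15 reads in Polq+/- libraries (log2 fold change 1.97, SE 0.32, adjusted p = 0.0013). At these counts its fold is imprecise, its call was lost without the 3 libraries that stand apart (adjusted p = 0.0727), it did not pass the count filter in a fit of only the 16 libraries, and reads could be shared with its relative Tmem45a nearby, which had a log2 fold change of 0.45 (SE 0.18, adjusted p = 0.938).

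Dubr (50719294 to 50732773, minus strand), a long intergenic RNA known from muscle cell differentiation, was the called gene whose groups overlapped. Wild-type mice ranged from 15.5 to 21.3 CPM and Polq+/- mice from 19.63 to 22.4 CPM, and all 8 Polq+/- mice lay above the wild-type median of 17.4 CPM. The log2 fold change was 0.27 (SE 0.05, adjusted p = 0.0207). The call was lost without any 1 of wild-type females 1 and 4, wild-type males 2 and 3, Polq+/- females 2 and 4 and Polq+/- males 1, 2 and 3, with the log2 fold change between 0.24 and 0.30 over all 16 left-out libraries, and in a fit of only the 16 libraries (adjusted p = 0.471).

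Sema5b (35541145 to 35664732, plus strand), a semaphorin that guides and repels growing axons, stood at 26.2 to 35.4 CPM in wild-type mice and 17.5 to 25.8 CPM in Polq+/- mice. The groups were separate by a narrow gap, and the mean was 27.3% lower (log2 fold change -0.46, SE 0.09, adjusted p = 0.0311). It stayed called when wild-type female 2, wild-type male 3 or Polq+/- male 4 was left out and was lost without any 1 of the other 13 libraries, with the log2 fold change between -0.50 and -0.41 over all 16. With the plate column of the well address as a covariate its adjusted p was 0.234. Cep97 (55899888 to 55934855, minus strand) encodes a centrosomal protein that restrains the formation of cilia. It went from 30.4 to 33.9 CPM in wild-type mice to 22.1 to 28.8 CPM in Polq+/- mice, a mean 16.8% lower (log2 fold change -0.27, SE 0.05, adjusted p = 0.0177). Its call was lost without wild-type female 1, wild-type male 4, Polq+/- female 2 or Polq+/- male 3, with log2 fold changes between -0.28 and -0.23 over all 16 left-out libraries, and in a fit of only the 16 libraries (adjusted p = 0.0664). Sema5b overlaps the pseudogene Gm5963 and Pcnp overlaps Zbtb11, each on the opposite strand, where reads cannot be told apart if counting ignored strand.

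Pcnp (56007245 to 56029739, minus strand) encodes a small nuclear protein with PEST motifs, and it was lower by 13.1% in Polq+/- mice. Wild-type mice ranged from 56.5 to 63.8 CPM and Polq+/- mice from 47.0 to 54.4 CPM (log2 fold change -0.20, SE 0.03, adjusted p = 0.0032), and the adjusted p was 0.0727 without the 3 libraries that stand apart. A processed copy of Pcnp, the pseudogene Gm7887 (chromosome 6, 48524554 to 48525090, minus strand), was examined after its value was seen. Its 537 bases matched the coding sequence of Pcnp at 535 positions (99.6%), the longest identical run being 428 bases, so reads from either can be assigned to the other. The stretch with both differences, bases 407 to 466 counted from 1 at the first base of the start codon, is shown with the differing bases in capitals, taken from the GENCODE M21 transcripts.
Pcnp: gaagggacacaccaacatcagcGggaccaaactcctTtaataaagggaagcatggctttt
Gm7887: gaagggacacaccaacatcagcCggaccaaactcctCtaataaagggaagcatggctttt
The substitutions from Pcnp to the copy are G429C and T443C. Gm7887 went the other way from Pcnp, from 13.8 to 16.8 CPM in wild-type mice (median 15.1) to 16.2 to 19.99 CPM in Polq+/- mice (median 16.7), with a log2 fold change of 0.17 (SE 0.05) and an adjusted p of 0.578. With the counts of both added, the level was 73.5 ± 2.96 CPM in wild type and 67.9 ± 2.24 CPM in Polq+/- mice (SD, n = 8), and the log2 fold change was -0.12 with an adjusted p of 0.219. The sums of the groups did not overlap, at 71.5 to 80.6 CPM in wild-type and 63.8 to 71.1 CPM in Polq+/- mice. The Pcnp call therefore did not hold for the sum, though the groups stayed apart by a narrow gap. How reads were divided between the copies was not tested.

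Low p-values on chromosome 16 were also unevenly placed. Of its 530 tested genes, 54 were at an unadjusted p under 0.05 (10.2%), against 870 of the 17740 other genes (4.9%). The other 19 chromosomes with at least 100 tested genes ranged from 3.12% on X to 6.67% on chromosome 18. Between 30 and 60 Mb, 34 of 173 genes had such a p (19.7%), 19 higher and 15 lower. These 34 include all 9 called genes, so this share partly counts the calls again. The limits at 30 and 60 Mb were not among the planned settings, unlike the window of 10 Mb around Polq given below. From 0 to 30 Mb the share was 9 of 237 (3.8%), and from 60 to 100 Mb it was 11 of 120 (9.17%). The differences ran in both directions, and the median log2 fold change of the 173 was 0.00136. Every Polq+/- mouse carries both the allele and the chromosome 16 sequence around it, so effects of Polq dosage and of position on this chromosome cannot be told apart.

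**Figure D2:**
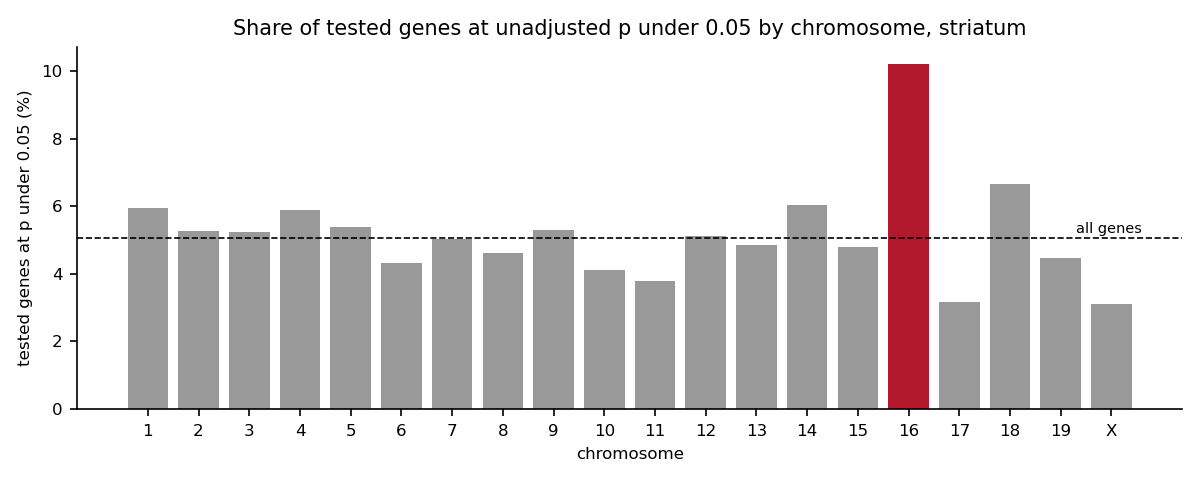
Share of tested genes (%, vertical axis from 0) with an unadjusted p under 0.05 on each of the 20 chromosomes with at least 100 tested genes, with chromosome 16 in red and the 5.06% of all genes as a dashed line. Chromosome 16 stands at 10.2%, and the next highest of those shown, chromosome 18, at 6.67%.

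Within 10 Mb of Polq, 135 genes were tested, 4 of them were called (Fbxo40, Mylk, Ccdc80 and Sema5b) and 17 had an unadjusted p under 0.05 (12.6%), 10 higher and 7 lower. Slc35a5, a member of the nucleotide sugar transporter family, came nearest to a call: its log2 fold change was -0.18 (SE 0.04, adjusted p = 0.114), with wild-type mice at 39.5 to 44.8 CPM and Polq+/- mice at 33.1 to 39.7 CPM. Upk1b, a tetraspanin of the bladder lining, had a larger difference at a low level, from 0.967 ± 0.369 CPM to 0.46 ± 0.228 CPM (SD, n = 8), and a log2 fold change of -1.08 (SE 0.33, adjusted p = 0.793). Gsk3b, a kinase of Wnt and insulin signalling less than 1 Mb from Polq, was 374 CPM in wild type and 396 CPM in Polq+/- mice (log2 fold change 0.09, SE 0.04, adjusted p = 0.938).

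**Figure D3:**
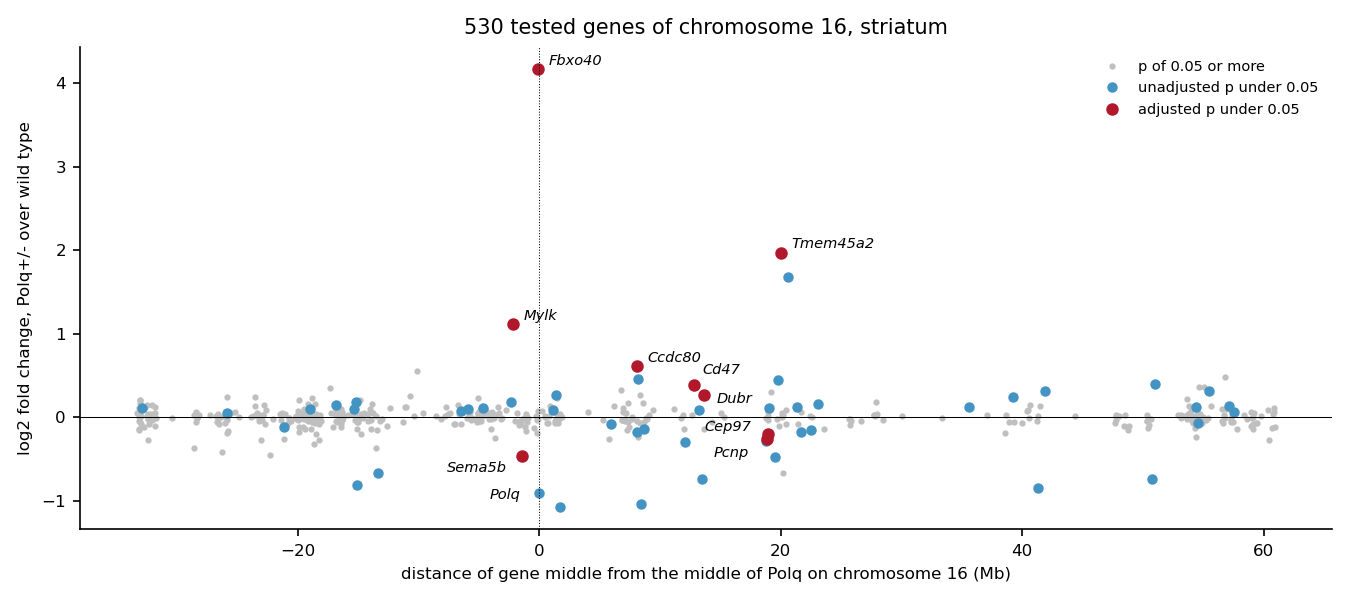
Log2 fold change, Polq+/- over wild type, of the 530 tested genes of chromosome 16 (vertical axis) by distance from Polq (horizontal axis, Mb), with called genes in red, genes at an unadjusted p under 0.05 in blue and the others in grey. Called genes lie on both sides of Polq and of the zero line, and Fbxo40, beside Polq, is highest at 4.17.

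A second set of striatal libraries, which shares none with these 16, set Polq+/- against Polq+/+ in mice with the disease allele: 8 Q140 X Polq+/- mice against 8 Q140 mice. There 10 genes were called (0.0547%), all on chromosome 16, and 8 of the 9 genes called above were among them, each with the same sign. Those 8 were 8 of 9 calls here and 8 of 10 there. Fbxo40 had a log2 fold change of 3.76 there (SE 0.23, adjusted p = 1.26e-12), Mylk 1.35 (SE 0.12, adjusted p = 1.6e-08), Cd47 0.38 (SE 0.05, adjusted p = 3.7e-05) and Ccdc80 0.68 (SE 0.09, adjusted p = 3.7e-05). Dubr was the exception, at 0.18 with an adjusted p of 0.926. Slc35a5, which narrowly missed here, was called there (-0.27, adjusted p = 8.77e-05), and so was Cd200, a ligand that restrains microglia (-0.19, adjusted p = 0.00935), which had a log2 fold change of -0.07 here.

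The 34 genes at an unadjusted p under 0.05 between 30 and 60 Mb could be followed the same way. Of these, 30 had the same sign in the Q140 background, and 19 (55.9%) had the same sign with an unadjusted p under 0.05. The 34 include the 9 called genes, and the 19 include the 8 shared calls already given. Of the 20 on the rest of chromosome 16, 2 did so (10%). Of the 870 among all other genes, 363 had the same sign and 9 (1.03%) had it with an unadjusted p under 0.05. No gene passed edgeR's test for a Polq effect that differed between the wild-type and the Q140 background (0 of 18270 at an adjusted p under 0.05, 893 or 4.89% at an unadjusted p under 0.05, smallest adjusted p 0.996).

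**Figure D4:**
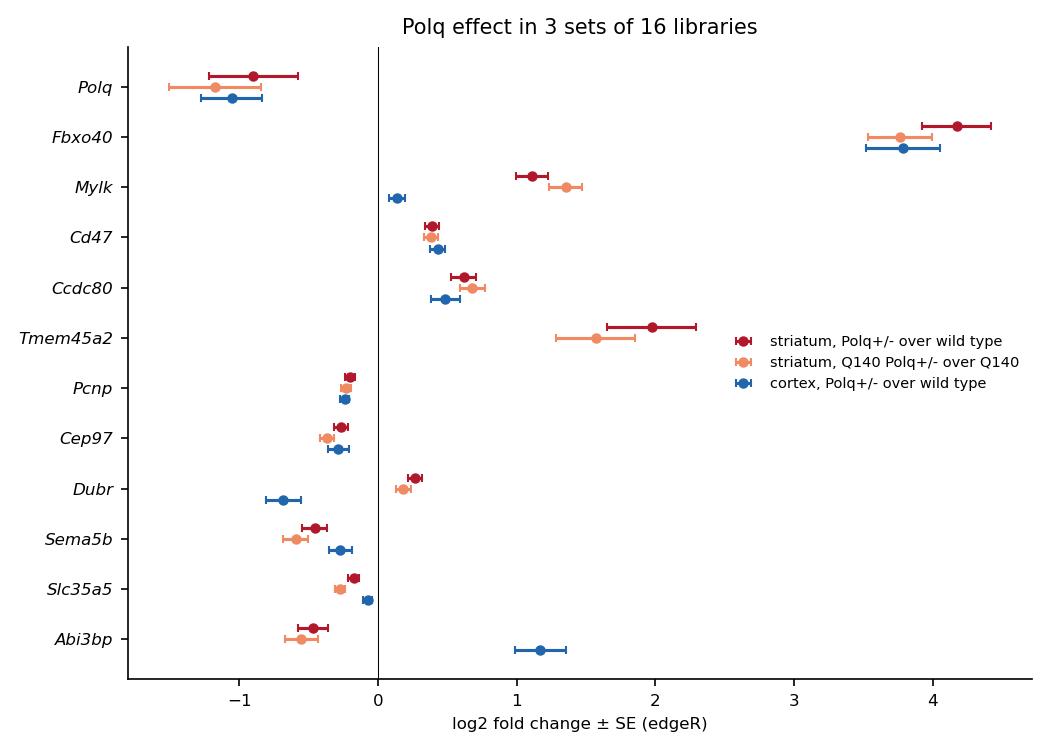
Log2 fold change ± SE (horizontal axis, edgeR) of Polq, the 9 called genes, Slc35a5 and Abi3bp for Polq+/- over wild type in striatum (red), Q140 Polq+/- over Q140 in striatum (orange) and Polq+/- over wild type in cortex (blue), each from 8 and 8 libraries. The striatal values lie close together, while Mylk is near 0 in cortex and Dubr and Abi3bp have opposite signs there. Tmem45a2 did not pass the count filter in cortex and has no cortical value.

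The cortex of the same mice called 8 genes (0.0442% of 18116), all on chromosome 16, of which Fbxo40, Cd47, Pcnp and Dubr were also called in striatum, 4 of 9 calls in striatum and 4 of 8 in cortex. Fbxo40 had a log2 fold change of 3.79 in cortex (SE 0.26, adjusted p = 2.04e-10), Cd47 0.43 (SE 0.05, adjusted p = 4.15e-05) and Pcnp -0.24 (SE 0.03, adjusted p = 8.65e-05). The copy Gm7887 again went the other way from Pcnp, at 0.23 in cortex (edgeR adjusted p = 0.0955) and 0.22 in the Q140 background (adjusted p = 0.088). The sum of Pcnp and Gm7887 was not examined in these sets. Mylk was 13.5 to 17.2 CPM in wild-type cortex and 14.6 to 19.1 CPM in Polq+/- cortex, with overlapping groups and a log2 fold change of 0.14 (SE 0.06, adjusted p = 0.999). Dubr was lower in Polq+/- cortex (2.09 to 4.87 CPM against 4.38 to 6.03 CPM, log2 fold change -0.68, SE 0.13, adjusted p = 0.0228) although it was higher in Polq+/- striatum.

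The difference between tissues was tested in 1 fit over 64 libraries that blocked on mouse, added after the opposite signs were seen. It called 3 genes (0.0161%), all among chromosome 16 genes: Mylk (striatal minus cortical log2 fold change 0.97, SE 0.10, adjusted p = 1e-07), Dubr (0.96, SE 0.14, adjusted p = 0.00125) and Abi3bp (-1.62, SE 0.26, adjusted p = 0.00519). Abi3bp, an extracellular matrix protein, was not called in striatum (26.4 to 49.0 CPM in wild-type and 16.7 to 29.5 CPM in Polq+/- mice, log2 fold change -0.47, SE 0.11, adjusted p = 0.219), but was called without Polq+/- male 4 (adjusted p = 0.0197). In cortex it rose from 5.31 to 8.71 CPM in wild type to 10.7 to 26.5 CPM in Polq+/- mice (log2 fold change 1.17, SE 0.18, adjusted p = 0.003). The Abi3bp difference did not pass with only the 32 libraries of both genotypes (adjusted p = 0.276) or without the mice of the 3 libraries that stand apart (adjusted p = 0.0628).

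Both sexes were also compared. No gene passed edgeR's test for a Polq effect that differed between the sexes (0 called, 1616 or 8.85% at an unadjusted p under 0.05, smallest adjusted p 0.274), while DESeq2 called 7. Fbxo40 had a log2 fold change of 4.02 in females and 4.32 in males, Mylk 1.06 and 1.16, Cd47 0.41 and 0.37, Sema5b -0.42 and -0.49.

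Polq+/- male 3, the mouse with the least Polq, was also the farthest from wild type of the 8 Polq+/- mice for 5 of the 9 called genes, which were called with this mouse in the fit. Over the 15235 genes of at least 1 CPM it was the farthest in the direction of the fold change for 15.6%, where the other 7 mice ranged from 8.11% to 15.7%. It had the highest Fbxo40 (8.52 CPM against 3.92 to 5.47 CPM in the other 7), the highest Mylk (24.8 CPM), the highest Tmem45a2 (0.47 CPM against 0.134 to 0.324 CPM), the highest Dubr by a small margin (22.4 CPM against a next value of 22.3 CPM) and the lowest Sema5b (17.5 CPM against 23.4 to 25.8 CPM). For Cd47, Ccdc80, Pcnp and Cep97 it lay within the range of the others. Only Polq+/- female 2 lay farther from wild type for Cd47 (303 CPM, male 3 at 286 CPM) and Cep97 (22.1 CPM, male 3 at 23.6 CPM). For Pcnp only Polq+/- female 3 did (47.0 CPM, male 3 at 48.6 CPM). Without Polq+/- male 3, 6 of the 9 genes were called, and Cep97, Dubr and Sema5b were not.

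Genes that act with polymerase theta or beside it were described from lists. Over all genes tested, 5.06% had an unadjusted p under 0.05 (2.61% higher, 2.45% lower). Each list's count here and below stands beside that share. Alternative end joining uses PARP1 to bind ends, MRE11 and CtIP (Rbbp8) to trim them and ligase 3 with XRCC1 to seal them. Of the 15 tested members of this list, none was called and 2 were at an unadjusted p under 0.05, both lower. These were Polq itself and Rad9a, a clamp subunit of damage signalling (17.7 CPM in wild type and 16.2 CPM in Polq+/- mice, log2 fold change -0.13, SE 0.06, adjusted p = 0.938). The median log2 fold change was 0.01, and for 14 of the 15, all but Polq, the 95% interval lay within 1.5-fold. In nonhomologous end joining, 0 of 13 tested members were called and 1, Aplf, a scaffold of that route, was lower at an unadjusted p under 0.05 (log2 fold change -0.14, SE 0.06, adjusted p = 0.938), with all 13 intervals within 1.5-fold.

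In homologous recombination 0 of 17 members had an unadjusted p under 0.05, in the Fanconi anaemia list 0 of 15, and in the list of mismatch repair genes and known CAG repeat modifiers 0 of 18. All 18 intervals of the last list lay within 1.5-fold. Among them, the mismatch recognition gene Msh3 was at 25.9 CPM in wild type and 26.2 CPM in Polq+/- mice (log2 fold change 0.01, SE 0.05), and the nuclease gene Fan1 at 12.6 and 13.2 CPM (0.07, SE 0.05), with adjusted p of 0.988 and 0.947. Of 23 DNA polymerase subunits, 2 were lower at an unadjusted p under 0.05, Polq and Pole4. In damage signalling 1 of 15 was higher at that threshold, the helicase Wrn (log2 fold change 0.14, SE 0.05, adjusted p = 0.938). Of 20 targets of p53, the transcription factor that answers DNA damage, 0 were called and 1, Zmat3, was higher at an unadjusted p under 0.05 (0.09, SE 0.03, adjusted p = 0.938). Htt was at 205 ± 27.8 CPM in wild type and 215 ± 8.62 CPM in Polq+/- mice (SD, n = 8; log2 fold change 0.07, SE 0.06, adjusted p = 0.947), and its log2 fold change was -0.000867 without wild-type male 3.

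Members of the interferon response and DNA sensing list, genes that sense misplaced DNA or answer interferon, mostly had a negative sign. Of 22 tested none was called, 7 were lower and 0 higher at an unadjusted p under 0.05, and 19 had a negative sign, with a median log2 fold change of -0.16 beside -3.71e-05 for all genes, of which 2.45% were lower at that threshold. Other lists were also mostly negative, with 13 of 14 heat shock genes (0 at an unadjusted p under 0.05), 12 of 13 mitochondrially encoded genes (2, both lower) and 12 of 15 microglial markers (1, lower). Blood genes (5 of 5 negative, 0 at such a p) and cerebellar granule cell markers (7 of 7 negative, 2 at such a p) had lower medians, -0.60 and -0.20. Oasl2 (-0.49, SE 0.17), Rsad2 (-0.49, SE 0.18) and Ifit3 (-0.25, SE 0.10), all induced by interferon, had adjusted p of 0.938 each. The summed level of the list was 135 to 164 CPM in wild type and 133 to 152 CPM in Polq+/- mice, with overlapping groups, and Trex1 was listed at 0 in all 16 libraries. In the Q140 background 2 members were lower at an unadjusted p under 0.05 (median -0.06), and in cortex none was (median 0.00 to 2 decimals).

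**Figure D5:**
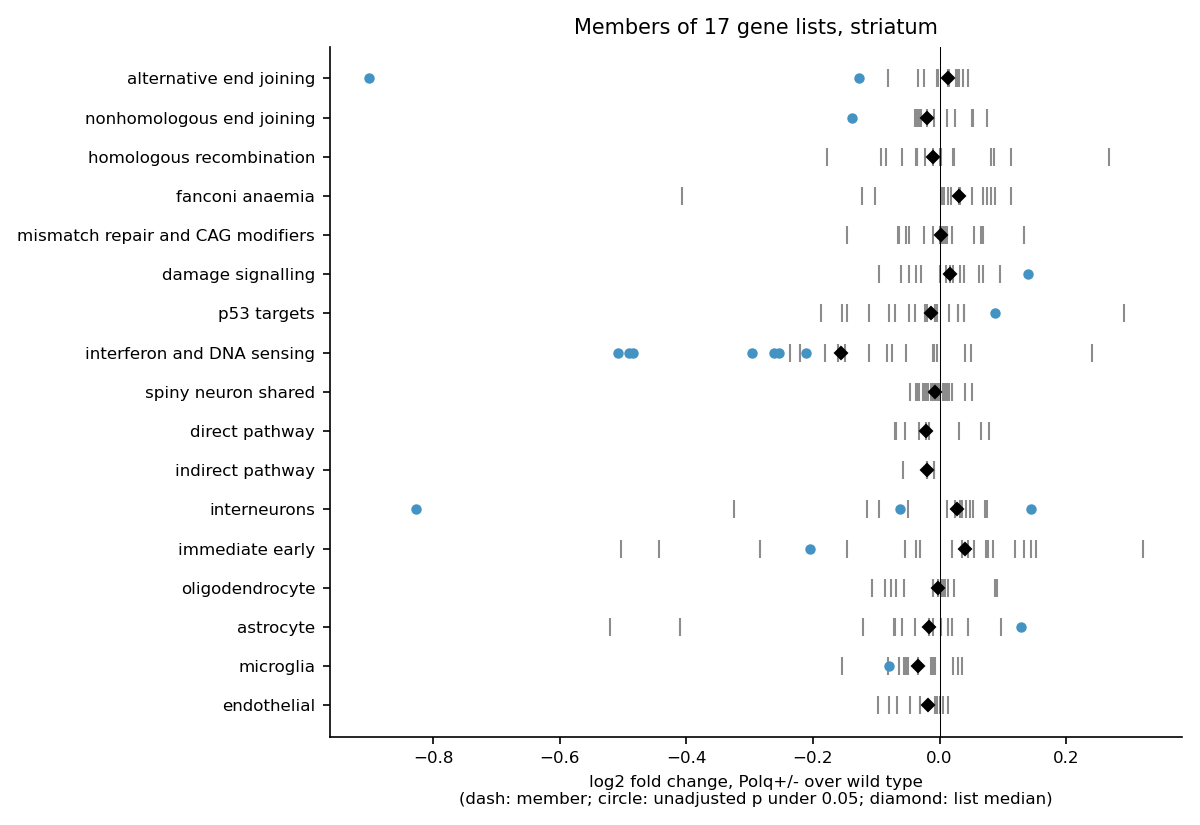
Log2 fold change (horizontal axis) of each tested member of 17 gene lists, with a dash per gene, a blue circle where the unadjusted p was under 0.05 and a black diamond at the list's median. Medians of the 17 lists drawn lie near 0, and interferon and DNA sensing has the lowest of these at -0.16. The leftmost circle of the alternative end joining list is Polq at -0.90.

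Cell type markers were read as lists, and in bulk tissue fewer cells of a type and less RNA per cell cannot be told apart. Of all genes tested, 5.06% had an unadjusted p under 0.05. Of the 26 markers shared by spiny neurons none had an unadjusted p under 0.05, the log2 fold changes ran from -0.05 to 0.05, and all 26 intervals lay within 1.5-fold. Of 9 direct pathway and 5 indirect pathway markers none had such a p either, and all intervals lay within 1.5-fold, with medians of -0.02 in both. Oligodendrocyte markers (15 tested), their precursors (10), endothelial cells (10) and mural cells (9) had none at an unadjusted p under 0.05, and astrocyte markers had 1 of 15. Interneuron markers had 3 of 16: Calb2 (-0.83, SE 0.33) and Gad1 (-0.06, SE 0.03) lower and Reln higher (0.14, SE 0.06), each with an adjusted p of 0.938. The Calb2 value moves with 1 library: wild-type male 2, which also held the cerebellar transcript, was at 12.1 CPM, while the other 7 wild types were at 1.27 to 2.21 CPM and Polq+/- mice at 1.23 to 2.03 CPM. For Reln, wild-type male 3 was at 202 CPM, apart from the other 7 wild types at 270 to 317 CPM. Polq+/- mice had 285 to 366 CPM of Reln.

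Choroid plexus markers had 9 of 10 tested members higher at an unadjusted p under 0.05, with a median log2 fold change of 1.88 and none called. Their summed level was 182 to 219 CPM in wild type and 185 to 2289 CPM in Polq+/- mice, the highest being Polq+/- female 3, and without that library 0 of the 10 had such a p. Cerebellar granule cell markers had 2 of 7 lower, Cbln3 and Cbln1, with sums of 73.4 to 239 CPM in wild type, the highest being wild-type male 2, and 79.2 to 87.4 CPM in Polq+/- mice. Both genes changed sign without wild-type male 2. None of the 9 called genes is on either list.

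The spread between mice set what could be seen. Over all genes the median SE of a log2 fold change was 0.06. The 95% interval lay within 1.5-fold for 16058 of 18270 genes (87.9%). Among the 10207 genes with a mean of at least 10 CPM this share was 99.7%. Of 15235 genes with a mean of at least 1 CPM, 31 had a fitted difference over 1.5-fold, and 3 of these were called. The groups of 8 did not overlap for 10 of the 15235 (0.0656%), of which 8 lay on chromosome 16. These were 7 called genes, Fbxo40, Mylk, Cd47, Ccdc80, Pcnp, Cep97 and Sema5b, and Polq. The other two were Stc2, a secreted glycoprotein (1.74 to 2.43 CPM in wild-type and 2.52 to 3.26 CPM in Polq+/- mice, log2 fold change 0.39, SE 0.10, adjusted p = 0.286), and Mgat4a, an enzyme that branches N-glycans (45.1 to 52.6 CPM and 52.8 to 56.5 CPM, 0.09, SE 0.03, adjusted p = 0.844).

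Among genes off chromosome 16 with a mean of at least 1 CPM, the smallest p belonged to Ifitm3, an interferon-induced membrane protein on chromosome 7 that blocks virus entry (6.45 ± 0.867 CPM in wild type, 4.98 ± 0.848 CPM in Polq+/- mice, SD, n = 8; log2 fold change -0.38, SE 0.09, adjusted p = 0.219). It was called with the first surrogate variable as a covariate (adjusted p = 0.0414). In the Q140 background its log2 fold change was -0.02. Pcdh8, an activity-regulated protocadherin on chromosome 14, had -0.26 (SE 0.06, adjusted p = 0.261) and -0.20 in the Q140 background. Psme4, a proteasome activator on chromosome 11, had 0.11 (SE 0.03, adjusted p = 0.4) and -0.06 there.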

How the data were processed

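RNA from striatum was sequenced from TruSeq stranded libraries, per the labels' protocols. The submitters' processing notes name STAR 2.7.5c, SAMtools 1.10, HTSeq 0.12.3 and GRCm38 (mm10), while no source used here states whether counting used strand. The authors deposited raw counts and FPKM values for 48795 genes. In 16088 genes the deposited FPKM were a fixed multiple, per gene, of the count over the library's sum. Gene positions came from GENCODE M21 (48435 IDs matched), and 27 names turned into dates were restored. The tables held 0 columns of other samples.

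Counts of all 32 striatal libraries entered 1 edgeR 4.0.16 quasi-likelihood fit (R 4.3.3; TMM, default filter by genotype, sex as covariate), and Polq+/- minus wild type was a contrast. Adjusted p-values (Benjamini-Hochberg) cover all genes of a fit. CPM are TMM-scaled. The 95% intervals come from the fitted SE. The cortical libraries had their own fit, and the tissue difference one over 64 libraries. Tested on simulated data for this comparison (18270 genes, 50 changed per fold size), the fit recovered 66% of genes changed 1.2-fold, 74% at 1.5-fold, 92% at 2-fold and 98% at 4-fold, with 5 false calls. All fold sizes were changed in the same simulated set, which loosens the adjusted threshold relative to a comparison with 9 calls. The simulated counts followed the fitted spread, with no library standing apart. Recovery in the real comparison can therefore be lower.

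Genes were named by a rule: Polq and Htt, all called genes, the 10 higher and 10 lower with the smallest p and those without overlap among genes of at least 1 CPM, genes within 10 Mb of Polq at an unadjusted p under 0.05, and up to 4 members of each of 31 gene lists. The text gives a part of these. The members, lists and the choice of libraries to leave out were made with earlier results of these data known. Alternatives were DESeq2 1.42.0, its size factors, limma 3.58.1 (voom, and trend on log2 of FPKM plus 0.1 or 1), no filter, 16 libraries, no sex term, replicate number, plate column, a random block by mouse name, sva 3.50.0 and left-out libraries. The tissue test and the sum of Pcnp and Gm7887 were added after seeing the data. Replicates were separate mice, some of which shared the leading number of the mouse name within a group. The random block by mouse name used that number, and relatedness of mice was not otherwise modelled. The number of mice limits the precision. Some named list members are not reported here.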

Additional observations from a re-analysis of the deposited data

Results flagged for a closer look

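A sample far from the rest of its group of 8 was looked for in 35 named genes, or 70 groups, by the gap to the nearest value over the range (Dixon's limit for 8 values). Chance marks about 1 group in 20, and 9 were marked here. Polq+/- male 3 was marked for Fbxo40 (8.52 CPM, next 5.47), Mylk (24.8 CPM, next 17.8) and Sema5b (17.5 CPM, next 23.4). Wild-type male 3 was marked for Htt (137 CPM, next 209), Pcnp (63.8 CPM, next 59.5), Abhd10 (20.9 CPM, next 18.7) and Mgat4a (45.1 CPM, next 50.6). Polq+/- female 4 was marked for Stc2 (3.26 CPM, next 2.79) and Polq+/- female 3 for Acap2 (154 CPM, next 172).

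The Polq effect differed between striatum and cortex by edgeR's test over 64 libraries for 3 genes. The striatal minus cortical log2 fold change was 0.97 for Mylk, 0.96 for Dubr and -1.62 for Abi3bp.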

How the results depend on the processing

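The count of 9 called genes ranged from 6 to 10 when each library was left out in turn, and was 4 without the 3 libraries that stand apart, where Fbxo40, Mylk, Cd47 and Ccdc80 were the genes called. Those 4 were called under each of the 29 distinct alternatives run for them. Sema5b missed the threshold under 16, Dubr under 11 and Cep97 under 7 of 29. Tmem45a2 missed it under 2 of 28 and did not pass the filter with only the 16 libraries, where 6 genes were called and Cep97 and Dubr were not. Pcnp missed it under 2 of 30, the sum with Gm7887 being one of them. DESeq2 called 12 genes, all on chromosome 16. Limma voom, the random block by mouse name and the first surrogate variable called 10 genes each, with 1 on another chromosome (Hoxa7, Hoxa7 and Ifitm3). The 924 genes at an unadjusted p under 0.05 became 1678 with no low-count filter and 539 with only the 16 libraries, and ranged from 735 to 1259 over left-out libraries. The 17 such genes within 10 Mb of Polq ranged from 14 to 20. Polq stayed between -0.997 and -0.761 (log2) over left-out libraries. DESeq2 called 7 genes for a difference between sexes, where edgeR called 0 and 0 over each left-out library. Over left-out libraries Htt ranged from -0.000867 (without wild-type male 3, a change of sign) to 0.0886. Cbln3 (-4.93 to 0.29) and Cbln1 (-2.35 to 0.13) changed sign without wild-type male 2, each at the upper value, and without the 3 libraries that stand apart (0.13 and 0.23). In the 8 pairs, same-numbered mice of a sex correlated at a median r of -0.03 after group means were removed (range -0.08 to 0.20, 2 of 8 best with their own number), so the numbers were not taken as pairs. With the replicate block 9 genes were called. Tmem45a2, at 1 to 15 reads, is limited by depth.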
